A study of Mus musculus with 12 samples.

Results

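The genes described here carry dietary fatty acids from the gut lumen into the enterocyte's metabolism. They comprise 9 genes: Cd36, Slc27a2 and Slc27a4 for uptake, Fabp1 and Fabp2 for binding, and Acsl1, Acsl3, Acsl4 and Acsl5 for activation. They were chosen by name, with earlier results of these data known. Each was read from the brightest probe set that names it alone. Of the 9 members, 7 had such a probe set (1 each) and all 7 were bright enough to be tested, among 19937 genes with a probe set and 11962 tested. The probe set for Acsl3 also names Utp14b, and Acsl1 was not analysed here.

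The samples were small intestine of 12 male wild-type mice of the FVB strain, labelled as 8 weeks old. For 8 weeks, 6 mice ate a control high-fat (HF) diet, and 6 ate a diet whose fat had few polyunsaturated for its saturated fatty acids (low P/S). The part of the small intestine and the time since the last meal are not given in the sources used here. Each mouse gave 1 Affymetrix array, the design text calls the 6 of each diet biological replicates, and values are linear intensities. The comparison of the diets concerns the tissue's response to a lower ratio of polyunsaturated to saturated fatty acids. More saturated and fewer polyunsaturated fatty acids cannot be told apart here. The series title links more saturated fat to cholesterol excretion through the intestine.

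As background, digestion releases fatty acids and monoglycerides at the brush border. CD36 and the fatty acid transport proteins of the Slc27 family aid their entry, and small cytosolic fatty acid-binding proteins (Fabp) hold them in solution. Long-chain acyl-CoA synthetases (Acsl) join them to coenzyme A, which traps them in the cell and commits them to triglyceride synthesis, membrane lipids or oxidation. Several of these genes are textbook targets of the peroxisome proliferator-activated receptors (PPAR), which bind fatty acids and attach to DNA as partners of the retinoid X receptor.

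The upstream sequences of 4 members are shown, and these members were picked by their results. They are Fabp1 and Fabp2 as the pair whose ratio did not overlap between the diets, Acsl4 as the largest difference, and Slc27a2 as the transporter with the larger difference. Each sequence is the stretch of 250 bases before the annotated start of transcription, 5′ to 3′ on the gene's strand. The source is RefSeq on GRCm38.p6, the genome of C57BL/6J and not of FVB. The positions are chr6:71199629-71199878 (+) for Fabp1, chr3:122894822-122895071 (+) for Fabp2, chrX:142390536-142390785 (-) for Acsl4 and chr2:126552774-126553023 (+) for Slc27a2. Capitals mark matches to the nuclear receptor half-site AGGTCA or to its direct repeat with a spacing of 1 base (DR1, AGGNCANAGGNCA), searched on both strands.
Fabp1: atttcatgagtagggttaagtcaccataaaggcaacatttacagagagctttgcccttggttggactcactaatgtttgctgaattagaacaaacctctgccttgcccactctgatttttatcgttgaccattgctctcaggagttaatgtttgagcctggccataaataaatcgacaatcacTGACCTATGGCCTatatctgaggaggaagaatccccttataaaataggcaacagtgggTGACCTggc
Fabp2: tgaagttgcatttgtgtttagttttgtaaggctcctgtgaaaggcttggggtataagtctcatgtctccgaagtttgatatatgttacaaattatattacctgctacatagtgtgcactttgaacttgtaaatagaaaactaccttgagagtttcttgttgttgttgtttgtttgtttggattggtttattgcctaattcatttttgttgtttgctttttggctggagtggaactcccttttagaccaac
Acsl4: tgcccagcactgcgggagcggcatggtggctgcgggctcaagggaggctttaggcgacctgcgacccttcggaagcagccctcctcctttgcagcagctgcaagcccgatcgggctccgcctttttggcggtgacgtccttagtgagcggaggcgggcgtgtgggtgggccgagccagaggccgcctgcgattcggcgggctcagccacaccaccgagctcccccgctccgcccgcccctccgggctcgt
Slc27a2: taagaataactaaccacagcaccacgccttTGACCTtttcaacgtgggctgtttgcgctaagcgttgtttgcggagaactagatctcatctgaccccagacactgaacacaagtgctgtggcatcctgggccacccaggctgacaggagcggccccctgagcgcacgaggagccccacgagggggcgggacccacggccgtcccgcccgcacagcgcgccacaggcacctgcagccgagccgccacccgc

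The Fabp1 window held a DR1 match from 67 to 55 bases before the start, on the reverse strand, and this match contains 1 of its 2 half-sites. The other half-site lay from 9 to 4 bases before the start. Slc27a2 had a half-site match and no DR1 match, and neither was found in these letters for Fabp2 or Acsl4. Over 10 windows of the 9 members (Acsl1 has 2 starts), a DR1 match stood in 1 and a half-site in 3, the third being Cd36. Among all 32851 windows of this length, 0.338% held a DR1 match and 14.0% a half-site. The CDX motif TTTATNG, named for the intestinal factor Cdx2, had 3 matches before Fabp1 and 1 before Fabp2, and 9.81% of all windows held it. The sterol regulatory motif TCACNCCAC was matched before 1 start of Acsl1, against 1.05% of all windows. A match is a string of letters, and no binding was measured.

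**Figure D1:**
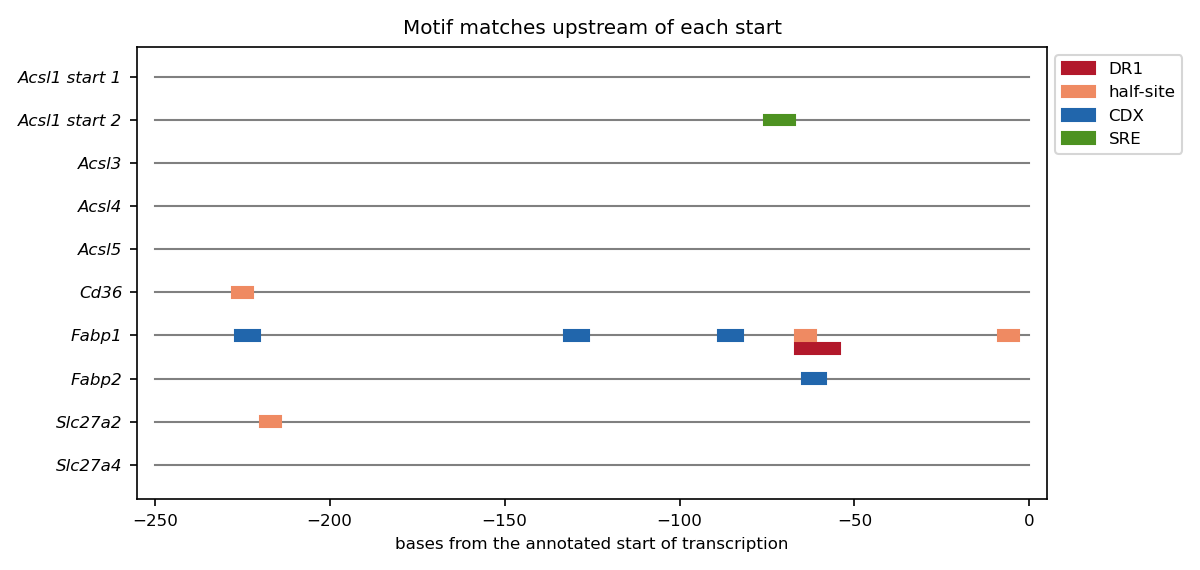
Motif matches in the 250 bases before each annotated start of the 9 members, with distance from the start in bases on the horizontal axis and 1 line per start. Coloured boxes mark DR1, half-site, CDX and sterol regulatory (SRE) matches, and the one DR1 match lies before Fabp1.

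Across the whole table, 25.7% of the genes tested passed limma's test at an adjusted p under 0.05. As shares of all tested genes, 17.8% passed as higher with the low P/S diet and 7.87% as lower. After quantile normalization these shares were 14.8% and 12.9%, a more even split, while the median difference of all tested genes stayed between -0.01 and 0.05 under the 3 scalings. The groups did not overlap in 10.8% of tested genes. Median intensity per array ran from 91.9 to 99.5, and on the first principal component the control arrays closest to the low P/S group were 1 and 2. Of 15 enterocyte markers, 8 fell and 7 did not pass, and their summed intensity ran from 75539 to 97239 on the control diet and from 66736 to 77424 on the low P/S diet. All 6 tested macrophage markers of 8 listed rose. Of endothelial markers 1 of 8 tested rose and 7 did not pass. None of 4 tested adipose and 8 smooth muscle markers passed, with 2 and 0 at an unadjusted limma p under 0.05. Over all 11962 tested genes, 4556 had such an unadjusted p. Among 5 proximal and 4 tested distal segment markers, 1 rose and 1 fell in each list. No marker was listed at 0.

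Of the 7 tested members, 2 rose (28.6%) and 5 did not pass, beside 25.7% of all genes. No member fell. An unadjusted limma p under 0.05 was found for 4 of 7 members, the risers included, beside 4556 of all 11962 genes tested. Acsl4 rose 1.47-fold and Fabp1 1.16-fold. Slc27a2 and Acsl5 were 1.16-fold and 1.12-fold higher without passing, and Cd36, Fabp2 and Slc27a4 lay within 1.03-fold of the control. The median difference of the members was 0.17 on the log2 scale, against 0.02 over all genes tested. Acsl4 alone had groups that did not overlap. Differences below are log2 values with the control subtracted from low P/S, ± gives limma's standard error over 6 arrays per diet, and intervals are limma's 95% intervals per gene. Each adjusted p is limma's with Benjamini-Hochberg adjustment. In whole tissue, fewer cells of a type and less RNA per cell cannot be told apart.

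**Figure D2:**
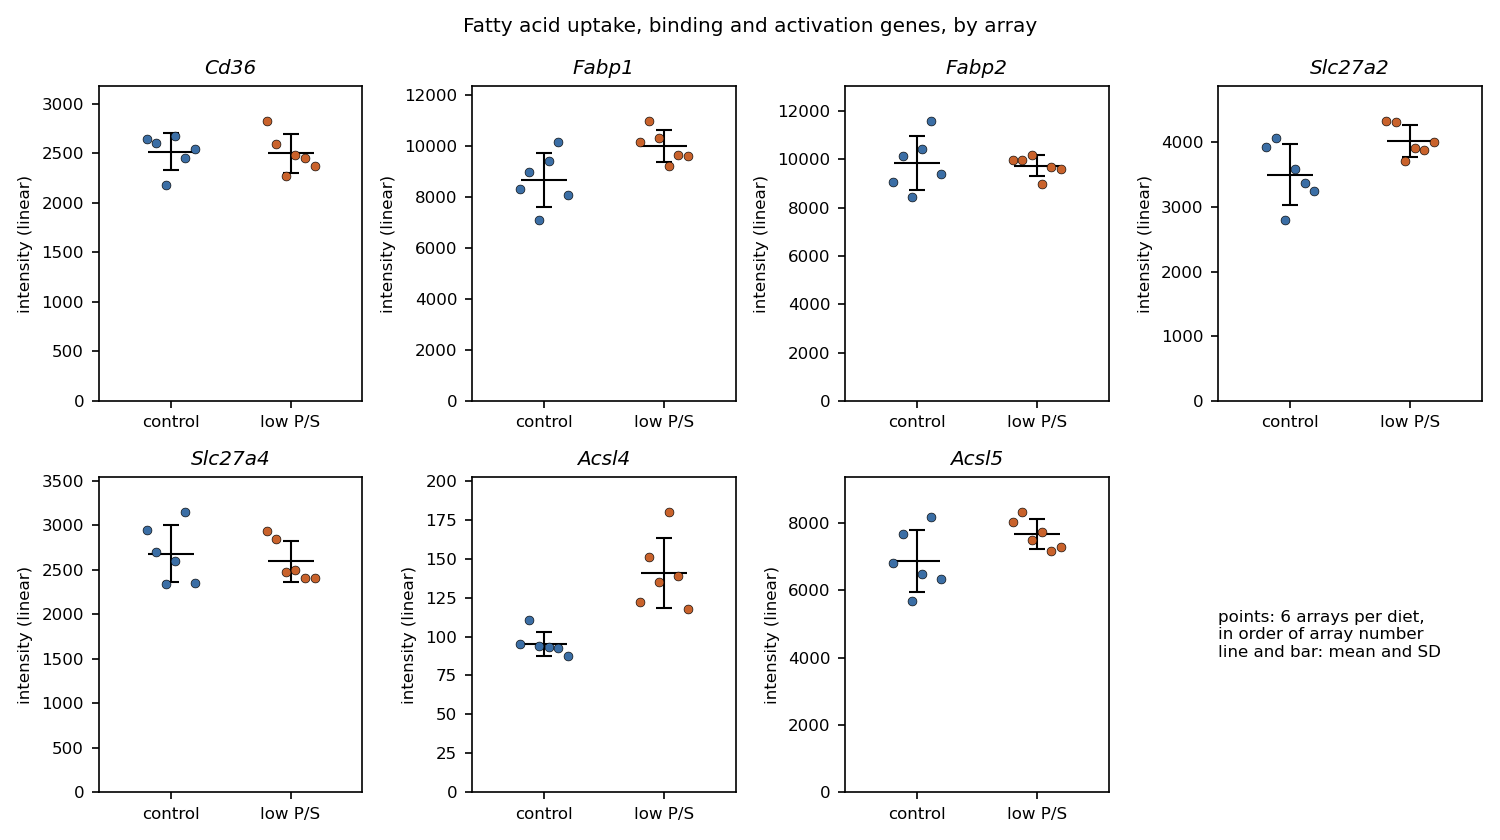
Linear intensity (vertical axis, from 0) of the 7 tested members on the control and low P/S diets, with 1 point per array, a line at the mean and a bar of 1 SD over 6 arrays. The Acsl4 points of the low P/S diet all lie above those of the control, while the Cd36, Fabp2 and Slc27a4 points of the diets overlap.

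The uptake receptor gene Cd36 (probe set 10528207) encodes a scavenger receptor that binds long-chain fatty acids at the cell surface. Its intensities were 2174 at the lowest, 2571 at the median and 2677 at the highest on the control diet. On the low P/S diet they were 2268, 2468 and 2825. The groups overlapped, with 1 low P/S array above all control arrays. The difference was -0.01 ± 0.06 (adjusted p = 0.924), with a 95% interval from -0.14 to 0.12. Its sign turned with median centring (0.02). Adipose tissue, endothelium and macrophages also express Cd36. The summed intensity of the 6 measured adipose markers ran from 839 to 1449 on the control and from 832 to 1492 on the low P/S diet, and that of the 9 endothelial markers from 902 to 1004 and from 933 to 1059. For macrophages, the sums over 8 markers were 909 to 1086 and 1122 to 1473. Their part in the Cd36 value was not tested.

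Slc27a2 (probe set 10475653) encodes a fatty acid transport protein that is also a very-long-chain acyl-CoA synthetase. Control intensities had a minimum of 2796, a median of 3486 and a maximum of 4076, and the low P/S intensities were 3715, 3961 and 4331. All 6 low P/S arrays exceeded the control median, and 2 exceeded every control array. The difference of 0.21 ± 0.08 did not pass (adjusted p = 0.0613), although its own interval ran from 0.04 to 0.38. Control arrays 1 and 2 had the highest control values, 3928 and 4076. Without control array 1 the difference was 0.25 and passed (adjusted p = 0.0335), and without array 2 it was 0.26 (adjusted p = 0.0208). Leaving out both, a choice made after seeing the data, gave 0.31 (adjusted p = 0.00483). Without control array 3, the lowest, it was 0.15 (adjusted p = 0.132).

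Slc27a4 (probe set 10470751), the main transport protein of the family in enterocytes, did not follow Slc27a2. Its control values were 2345, 2652 and 3144 (lowest, median, highest), and its low P/S values 2407, 2490 and 2934. Every low P/S array lay inside the control range. The difference was -0.04 ± 0.08 (adjusted p = 0.722), with an interval from -0.21 to 0.12. Slc27a1, the other tested gene of the family, had no difference beyond its error (SE 0.06, adjusted p = 0.977, interval -0.12 to 0.12), whereas Slc27a3, Slc27a5 and Slc27a6 were too dim to test, at geometric mean intensities of 60.9 to 84.3. These 4 genes were named after their values were seen.

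Within each array, a single scaling factor cancels in the ratio of Slc27a2 to Slc27a4. The log2 ratio averaged 0.38 ± 0.18 (SD, n = 6) on the control and 0.64 ± 0.07 (SD, n = 6) on the low P/S diet. The groups overlapped, with 4 low P/S arrays above all control arrays. The ratio was 1.19-fold higher on the low P/S diet, a log2 shift of 0.25 (exact 95% interval 0.09 to 0.43, exact two-sided permutation p = 0.00649, Benjamini-Hochberg p = 0.00649 over 3 pairs). The mean ratio thus differed between the diets. Neither transporter passed on its own, but limma's p was adjusted over all tested genes and that of the ratio over 3 pairs. These outcomes are therefore not comparable. Unadjusted, limma's p was 0.0172 for Slc27a2 and 0.593 for Slc27a4. The level of the ratio itself reflects the probes, and its shift between the diets is what was compared.

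Fabp1 (probe set 10538965) encodes the liver-type fatty acid-binding protein, which is abundant in the proximal intestine and whose gene is a known PPAR target. Its lowest, median and highest intensities were 7085, 8630 and 10138 on the control diet. They were 9197, 9885 and 10965 on the low P/S diet. Every low P/S array lay above the control median and 3 lay above all control arrays, so the groups overlapped. It rose by 0.21 ± 0.08 (1.16-fold, interval 0.05 to 0.37, adjusted p = 0.0481), close to the threshold. The call ended without any 1 of control arrays 1, 3 and 6 or low P/S arrays 1, 2, 3, 5 and 6, with differences from 0.16 to 0.22 and a highest adjusted p of 0.106, without control array 3. The call also ended with median centring (0.24, adjusted p = 0.0528) and with no filter on dim genes (adjusted p = 0.0620). Of 19 alternatives, 12 ended the call and 7 kept it, quantile normalization among the latter (0.18, adjusted p = 0.00586).

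Fabp2 (probe set 10495820), the intestinal-type binding protein made by enterocytes, showed no such difference. On the control diet its values were 8441 (lowest), 9775 (median) and 11588 (highest), while those of the low P/S diet were 8969, 9830 and 10193. The low P/S values sat inside the control range. The difference was -0.01 ± 0.07 (adjusted p = 0.927), with an interval from -0.15 to 0.13, and its sign turned with median centring (0.02). The enterocyte markers named above summed lower on the low P/S diet, and their part in the Fabp values was not tested.

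Among the 3 ratios tested within families, only that of the binding proteins had groups that did not overlap. Such separation was seen in 10.8% of single tested genes, and its share among ratios of other gene pairs was not computed. The log2 ratio of Fabp1 to Fabp2 was -0.19 ± 0.05 (SD, n = 6) on the control and 0.03 ± 0.05 (SD, n = 6) on the low P/S diet. Control ratios ran from -0.25 to -0.13 and low P/S ratios from -0.01 to 0.14, so all 6 low P/S arrays lay above all 6 control arrays. The shift was 0.22 or 1.17-fold (exact 95% interval 0.16 to 0.29). Its exact two-sided permutation p was 0.00216, the smallest that 924 arrangements can give, and its Benjamini-Hochberg p was 0.00649 over 3 pairs. On the control diet each gene varied more between arrays than their ratio did, with an SD of 0.18 for Fabp1, 0.16 for Fabp2 and 0.05 for the ratio. On the low P/S diet the SDs lay closer together, at 0.09, 0.06 and 0.05. Leaving out any 1 array gave shifts from 0.20 to 0.23, against differences from 0.16 to 0.26 for Fabp1 alone. The call of the ratio could not end in this way, because groups without overlap stay apart when 1 array is dropped. Fabp1 alone was adjusted over all tested genes and the ratio over 3 pairs, so their calls were not compared.

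**Figure D3:**
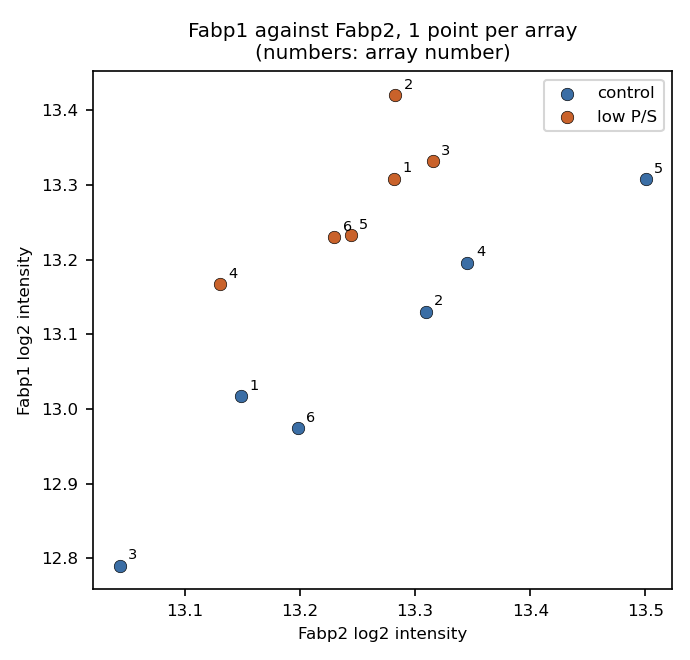
Log2 intensity of Fabp1 (vertical axis) against Fabp2 (horizontal axis), with 1 point per array labelled by its number and coloured by diet. The points of each diet form a rising band, and at a given Fabp2 level the 6 low P/S arrays lie above the 6 control arrays by about the shift of 0.22.

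Acsl4 (probe set 10607089) encodes a synthetase that prefers arachidonic acid and related polyunsaturated fatty acids and feeds them into phospholipids. Its control values were 87.4 at the lowest, 93.5 at the median and 110 at the highest. The low P/S values were 118, 137 and 180, so every low P/S array exceeded every control array. Such separation with the low P/S diet higher was seen in 6.86% of all tested genes. The gene rose by 0.55 ± 0.09 or 1.47-fold (interval 0.37 to 0.74, adjusted p = 0.000415), and 6 of 6 arrays showed the direction. It passed under all 19 alternatives tried, with differences from 0.48 to 0.60. The mean of probe sets, 1 of these, could not change its values, as it has 1 probe set. The probe set is dim: its control level of 95.1 stands just above the level of 85.6 below which genes were left out.

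Other cell types also use Acsl4, macrophages among them. All 6 tested macrophage markers rose, with a median difference of 0.43, and the complement gene C1qc and receptor gene Csf1r rose by 0.56 ± 0.08 and 0.54 ± 0.07 (adjusted p = 0.000102 and 0.000105), both chosen after their values were seen. The macrophage sum given above did not overlap between the diets. The part of these cells in the Acsl4 difference was not tested.

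Acsl5 (probe set 10464045) encodes the main long-chain synthetase of enterocytes, on mitochondria and the endoplasmic reticulum. Its intensities were 5664, 6638 and 8176 (lowest, median, highest) on the control and 7156, 7593 and 8301 on the low P/S diet. All 6 low P/S arrays lay above the control median, and 1 lay above all control arrays. The difference of 0.17 ± 0.08 did not pass (adjusted p = 0.118, interval 0.01 to 0.33). Control array 5 held the highest control value, and without it the difference was 0.22 and passed (adjusted p = 0.0342). Without control array 3 it was 0.12 (adjusted p = 0.258).

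The ratio of Acsl4 to Acsl5 rose between the diets by 0.38 on the log2 scale (1.30-fold, exact 95% interval 0.14 to 0.63, exact two-sided permutation p = 0.00649, Benjamini-Hochberg p = 0.00649 over 3 pairs). The low P/S ratios lay above all control ratios in 4 arrays of 6. The 5 other pairs of synthetases need Acsl1 or Acsl3 and could not be compared.

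**Figure D4:**
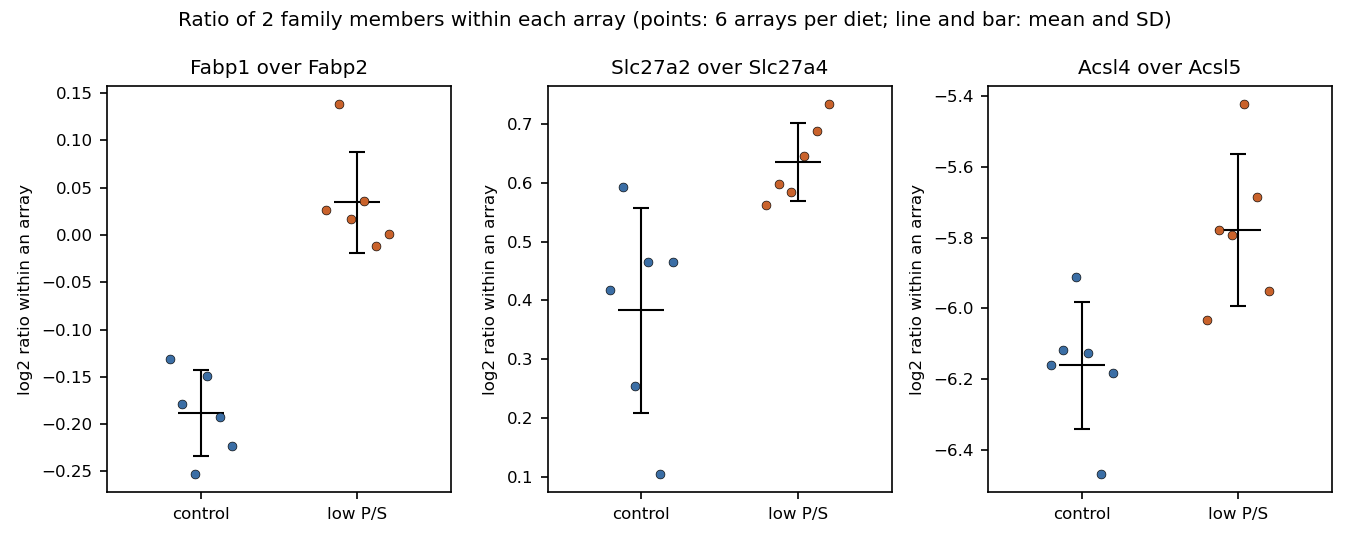
Log2 ratio of 2 family members within each array (vertical axis), on the control and low P/S diets, with 1 point per array, a line at the mean and a bar of 1 SD over 6 arrays. The Fabp1 to Fabp2 ratios do not overlap between the diets, and 4 low P/S arrays lie above all control arrays in each of the other pairs.

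The members also varied among the arrays of a diet. Among control arrays, number 3 was lowest for 6 of 7 members, with Acsl4 as the exception, and control array 5 was the highest for 4. The pattern was not particular to the members. Among control arrays, number 5 was also the highest for each of the 15 enterocyte markers, and number 3 the lowest for most of them. Control array 3 had the highest median intensity of all arrays, at 99.5, and whether this bears on its low member values was not tested. On the log2 scale the SD was smaller on the low P/S diet for 6 of 7 members, for example 0.08 against 0.19 for Acsl5 and 0.09 against 0.20 for Slc27a2. Acsl4 went the other way, with 0.22 against 0.11. These spreads are given as values, without a test, and the share of all tested genes with a smaller SD was not computed.

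To describe which genes varied most like each member, deviations from the diet means were correlated over the 12 arrays, which removes the difference between the diets. For Fabp1 the closest were Atp5b, a subunit of mitochondrial ATP synthase (Pearson r = 0.983), and Rbp2, the intestinal retinol-binding protein (r = 0.964). Fabp2 was closest to Fabp1 itself (r = 0.942) and to Pabpc1, which binds the tails of messenger RNA (r = 0.940). Slc27a4 was closest to Actn4 (r = 0.967) and Ephx2 (r = 0.940), and Acsl5 to Mttp, which loads lipid onto chylomicrons (r = 0.935), and Yars (r = 0.908). Slc27a2 was closest to Pon2 (r = 0.932) and Reep3 (r = 0.922), both higher on the low P/S diet by 0.45 and 0.44 (adjusted p = 0.000297 and 0.00338). Cd36 was closest to Tent4b (r = 0.904) and Zdhhc7 (r = 0.897), and among members to Slc27a2 (r = 0.806). Acsl4 had Hspbp1 (r = 0.899) and Mpzl1 (r = 0.895) and no member above r = 0.265. Mpzl1 and Yars were also higher on the low P/S diet, by 0.38 and 0.35 (limma adjusted p = 0.000393 and 0.00122). Apart from these, Pon2, Reep3 and Fabp1, the closest genes named here did not pass. The correlations describe 12 arrays that share scaling and tissue makeup, and are the highest found among all tested genes.

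Beyond the members, 42 further genes of uptake, binding and activation were listed, of which 23 were bright enough to test and 19 were too dim. Among the 23, 9 rose, 2 fell and 12 did not pass. The passing share was thus 47.8% beside 25.7% of all genes tested, with a median difference of 0.08 against 0.02. The list was chosen with earlier results of these data known, so its share is given only as a description.

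Acss2, which makes acetyl-CoA from acetate, had 239, 251 and 298 (lowest, median, highest) on the control and 377, 506 and 771 on the low P/S diet, without overlap, and rose 1.99-fold (0.99 ± 0.14, adjusted p = 0.000141). Aacs, which activates acetoacetate for lipid synthesis, rose 1.81-fold (0.85 ± 0.11, adjusted p = 5.30e-05). Both supply carbon to fatty acid and sterol synthesis. In contrast, the medium-chain synthetase gene Acsm5 fell 2.00-fold, from 171, 205 and 236 on the control to 81.2, 99.6 and 131 (-0.997 ± 0.116, adjusted p = 3.23e-05). The mitochondrial medium-chain synthetase gene Acsf2 was 1.37-fold lower (-0.46 ± 0.07, adjusted p = 0.000351). In both, every low P/S array lay below every control array, as in 3.9% of all tested genes.

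Dbi, the acyl-CoA-binding protein that carries the products of the synthetases, rose 1.37-fold (0.45 ± 0.07, adjusted p = 0.000233). Its control values were 2531, 2930 and 3234, and its low P/S values of 3755, 3931 and 4612 lay above all of them. Got2, a mitochondrial aspartate aminotransferase also described as a plasma membrane fatty acid-binding protein, rose 1.57-fold (0.65 ± 0.10, adjusted p = 0.000385). Scarb2, a lysosomal relative of Cd36, rose 1.40-fold (0.49 ± 0.08, adjusted p = 0.000344). The binding protein gene Fabp5 rose 1.13-fold (0.17 ± 0.04, adjusted p = 0.00504) at dim levels of 91.4 (control) and 103 (low P/S). Taken as the mean of its probe sets, Fabp5 was not among the genes tested, and it passed in the other 18 alternatives. Dbi, Got2, Scarb2 and Fabp5 had no overlap between the diets, with low P/S higher, as in 6.86% of all tested genes.

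The remaining 3 passing genes lay outside the rule for naming and were chosen after their values were seen. Acsf3, a mitochondrial malonyl-CoA synthetase, rose by 0.24 ± 0.07 (adjusted p = 0.0143). The lipoprotein receptor Scarb1 had 0.16 ± 0.05 (adjusted p = 0.0284) and the acyl-CoA-binding protein Acbd6 had 0.14 ± 0.05 (adjusted p = 0.0440). Scarb1 lost its call when control array 2 or 4, or array 2 or 6 of the low P/S diet, was left out (adjusted p up to 0.0695), and Acbd6 when any 1 of 8 of the 12 arrays was (up to 0.107). Acbd6 also missed the threshold with no filter (adjusted p = 0.0501). The ileal bile acid-binding gene Fabp6, at 46.0 and 47.1, and the fatty acid receptor genes Ffar1, Ffar2, Ffar3 and Ffar4, at 68.3 to 75.5, were among the dim genes and were also chosen after their values were seen.

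**Figure D5:**
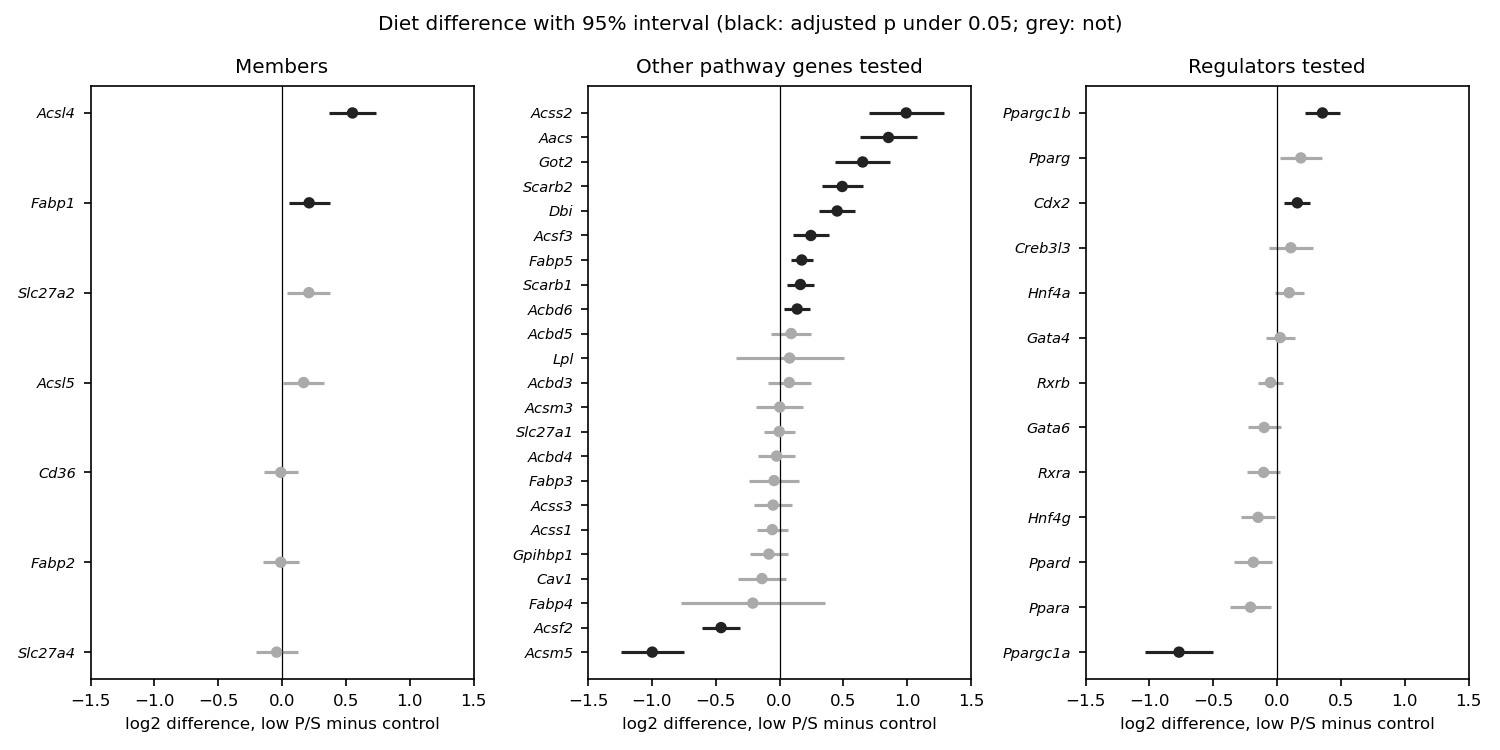
Log2 difference, low P/S minus control (horizontal axis), with limma's 95% interval per gene, for the 7 members, 23 other pathway genes and 13 regulators tested. Black marks an adjusted p under 0.05 and grey the rest: 2 members, 11 other pathway genes and 3 regulators are black.

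Of 13 listed regulators of these genes, all tested, 2 rose, 1 fell and 10 did not pass (23.1%, beside 25.7% of all genes). The coactivator gene Ppargc1a, whose protein assists the PPARs and drives mitochondrial genes, fell 1.70-fold. Its intensities were 659, 720 and 861 on the control and 310, 411 and 580 on the low P/S diet, without overlap (-0.77 ± 0.12, adjusted p = 0.000463). Its relative Ppargc1b rose 1.28-fold (0.35 ± 0.06, adjusted p = 0.00109), also without overlap. The intestinal identity factor Cdx2 rose 1.12-fold (0.16 ± 0.05, adjusted p = 0.0228). That call ended with quantile normalization (0.08, adjusted p = 0.266), without low P/S array 5 (adjusted p = 0.0517) and without control arrays 1 and 2 (adjusted p = 0.0751).

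The receptor genes did not pass in the fit of the deposited values with diet as its 1 term, and that outcome changed under several alternatives. Ppara, the PPAR that responds to fatty acids in oxidative tissue, had a difference of -0.21 ± 0.08 (adjusted p = 0.0550), Ppard -0.19 ± 0.07 (adjusted p = 0.0601) and Pparg 0.19 ± 0.08 (adjusted p = 0.0862). These 3 were named after their values were seen. Quantile normalization brought Ppara (-0.28, adjusted p = 0.0235) and Ppard (-0.24, adjusted p = 0.0264) past the threshold as lower. Ppara also passed when control array 2 or low P/S array 2 or 6 was dropped, with a lowest adjusted p of 0.0130 without low P/S array 6. Ppard passed when control array 1 or 2, or array 6 of the low P/S diet, was dropped singly (lowest of these 0.0211), and Pparg, as higher, without control array 1 alone (adjusted p = 0.0219). Leaving out control arrays 1 and 2 together was a choice made after seeing the data. These arrays held the lowest control values of Ppard and the highest of Pparg. Without them all 3 passed: Ppara at -0.23 (adjusted p = 0.0428), Ppard at -0.27 (adjusted p = 0.00754) and Pparg at 0.29 (adjusted p = 0.00535).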

How the data were processed

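The deposited values are linear intensity values, 1 per probe set and array, for 12 arrays. Per the labels' protocols, 500 ng of total RNA per mouse was labelled with a whole-transcript kit, and ribosomal RNA was not depleted. The authors' summarization and normalization steps were not given in the sources used here. Precision is limited by the number of arrays, and the median standard error of a log2 difference was 0.061.

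Of 34760 probe sets, 21640 named 1 gene, 1321 several and 11799 none. The brightest probe set per gene was kept, the log2 was taken, and genes whose mean level was under the 40th percentile (intensity 85.6) were left out. Diets were compared with limma 3.58.1 in R 4.3.3 (lmFit, eBayes, two-sided), with Benjamini-Hochberg adjustment over 11962 genes and a threshold of 0.05. Ratios within families used exact permutation over all 924 arrangements, with Python 3.11.15 and NumPy 2.4.6. The steps were tested on simulated data. The members and lists were chosen with earlier results of these data known. Named were all members, up to 8 passing genes of smallest p in each of the pathway and regulator lists, and the 2 genes most like each member. Alternatives were quantile normalization, median centring, no filter, the mean of probe sets, a pseudocount of 16, a replicate block and leaving out each array. Leaving out control arrays 1 and 2 together was added after the data were seen.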

Additional observations from a re-analysis of the deposited data

Results flagged for a closer look

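In 2 cases a value lay far from the other 5 arrays of its diet, among 42 sets of 6 arrays examined, where about 1 in 20 is flagged by chance. Control array 2 had a log2 intensity of 6.79 for Acsl4, against 6.57 for the next highest control array. Without it the Acsl4 difference was 0.59 (limma adjusted p = 0.000273). Low P/S array 2 had a log2 ratio of Fabp1 to Fabp2 of 0.138, against 0.04 for the next highest. Without it the shift of that ratio was 0.20 (exact permutation p, adjusted over 3 pairs, 0.00649).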

How the results depend on the processing

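The Acsl4 call and the shifts of the 3 ratios held under every alternative run for them, for the ratios including quantile normalization, which was added after the data were seen (shifts of 0.24, 0.28 and 0.42). Each tested member has 1 probe set, so the mean of probe sets could not change a member's values or ratios. Leaving out 1 array could not end the call of the Fabp1 to Fabp2 ratio. The count of members higher on the low P/S diet was 2 and became 1 with median centring, 1 with no filter and 1 to 3 when single arrays were left out. Fabp1 missed the threshold with median centring (0.24), no filter (0.21), the replicate block (0.21, adjusted p = 0.0529) and without control arrays 1 and 2 (0.21). It passed with quantile normalization (0.18, adjusted p = 0.00586). Leaving out single arrays gave differences of 0.16 to 0.26 for Fabp1, 0.15 to 0.26 for Slc27a2, 0.12 to 0.22 for Acsl5, -0.0512 to 0.0174 for Cd36, -0.053 to 0.0384 for Fabp2, -0.0793 to 0.0052 for Slc27a4 and -0.0414 to 0.0248 for Slc27a1.

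Slc27a2 passed with the replicate block (0.21, adjusted p = 0.0130) and without control arrays 1 and 2 (0.31). Signs turned for Cd36 (0.0159 with median centring, 0.022 without control arrays 1 and 2), Fabp2 (0.0156 with median centring) and Slc27a1 (0.0228 with median centring). The count of regulators higher was 2, and 1 with quantile normalization, 3 with the replicate block and 1 to 3 without single arrays. The count lower was 1, and 5 with quantile normalization, 3 with the replicate block, 3 without control arrays 1 and 2, and 1 to 3 without single arrays. With the replicate block Ppara (-0.21, adjusted p = 0.0341), Ppard (-0.19, adjusted p = 0.0474) and Pparg (0.19, adjusted p = 0.0427) passed. The causes were not tested.

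Arrays share numbers between the diets. Deviations of same-numbered arrays correlated at over 0.1 for 3 of 6 numbers, and 2 of 6 correlated best with their own, so the numbers were not treated as pairs. With the replicate block 3530 genes passed, against 3074.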
